A study of Mus musculus with 4 samples.

Results

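The genes described here are 45 genes of the heart muscle sarcomere, of calcium handling, and of muscle energy supply, together with both cardiac natriuretic peptides. They were measured in ventral and dorsal tissue of the tracheoesophageal anlage, taken from BALB/c mouse embryos at around E9.75. A member was any gene of a named list whose symbol stood alone for a probe set in the array's annotation, and all 45 were found, with 90 probe sets, among the 18194 named genes of the array. The anlage is the foregut tube from the end of the pharynx to the end of the lung bud swelling, and it was cut by hand into a ventral and a dorsal piece, each with its epithelium and mesenchyme. There were 2 Affymetrix arrays of the ventral tissue and 2 of the dorsal tissue, which the labels call biological replicates, with no treatment or mutation on either side. Nothing in the labels says whether the replicates came from separate litters or pools, so the p-values reflect the scatter among these 4 arrays and nothing wider.

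The sarcomere is the contractile unit of striated muscle. Myosin thick filaments slide along actin thin filaments between Z-discs, titin spans from the Z-disc to the M band, and troponin on the thin filament opens the sites for myosin when calcium binds. Calcium leaves the sarcoplasmic reticulum through the ryanodine receptor and is pumped back by a calcium ATPase that phospholamban restrains. In the mature heart atrial and ventricular muscle use different myosin light chains, while the atrial ones are made more widely in the early heart tube. Embryonic heart muscle also uses the slow skeletal troponin I. The heart lies ventral to the foregut at this stage, and the mesoderm around the ventral foregut is continuous with its venous pole.

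Values are log2 expression values from RMA, a method that corrects the background, sets the arrays to a common distribution and gives 1 value per probe set. Where a gene has several probe sets, the one of highest mean stands for it. A gene entered the test when it exceeded the 40th percentile on 2 or more arrays. The limma contrast was ventral minus dorsal, and a call is an adjusted p under 0.05 over all 13139 tested genes. In limma the variance of each gene is drawn towards a common value of all tested genes, here with 18.7 prior degrees of freedom. The standard errors are therefore not the replicate spread of each gene alone. The 40th percentiles lay at 4.69 and 4.82 on the ventral arrays and at 4.73 and 4.73 on the dorsal arrays. Replicates differed by a median of 0.26 in the ventral tissue and 0.08 in the dorsal tissue over the tested genes. The upper quartile was 8.02 in ventral replicate 1 but 7.75 in ventral replicate 2. With 2 arrays per side the smallest two-sided p of an exact permutation test is 0.333, so single genes were judged by limma alone.

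Most genes of the filaments and the Z-disc were higher in the ventral tissue, by less than 1 to over 6 on the log2 scale. Of the 6 tested calcium handling genes 4 did not pass. Neither did the 3 tested genes of energy supply and the 1 tested natriuretic peptide gene, lists too small to set against the share of all tested genes. Of the 38 members tested, 27 were higher in the ventral tissue and none in the dorsal tissue. Of all tested genes 4.09% were higher in the ventral tissue and 4.79% in the dorsal tissue, 8.88% in either direction. The median difference was 0.75 over all 45 members and 1.54 over the tested ones, and that of all tested genes was -0.07. The 38 are not all the members, and 7 of them (*Myh6*, *Ldb3*, *Smpx*, *Tcap*, *Xirp1*, *Ankrd1* and *Ryr2*) exceeded the 40th percentile only in the ventral tissue, so they entered the test through the side on which they were high. Without the filter all 45 were tested, and 26 were higher in the ventral tissue and none in the dorsal tissue, where 2.59% of all 18194 genes were higher ventrally and 2.9% dorsally. *Tcap* lost its call there. The other 7 members (*Myl2*, *Myom2*, *Lmod2*, *Myoz2*, *Trdn*, *Ckmt2* and *Nppa*) lay below the 40th percentile on all 4 arrays and were not tested. Since these are bulk samples, a larger number of muscle cells in the ventral tissue and more of the RNA per cell cannot be told apart.

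**Figure D1:**
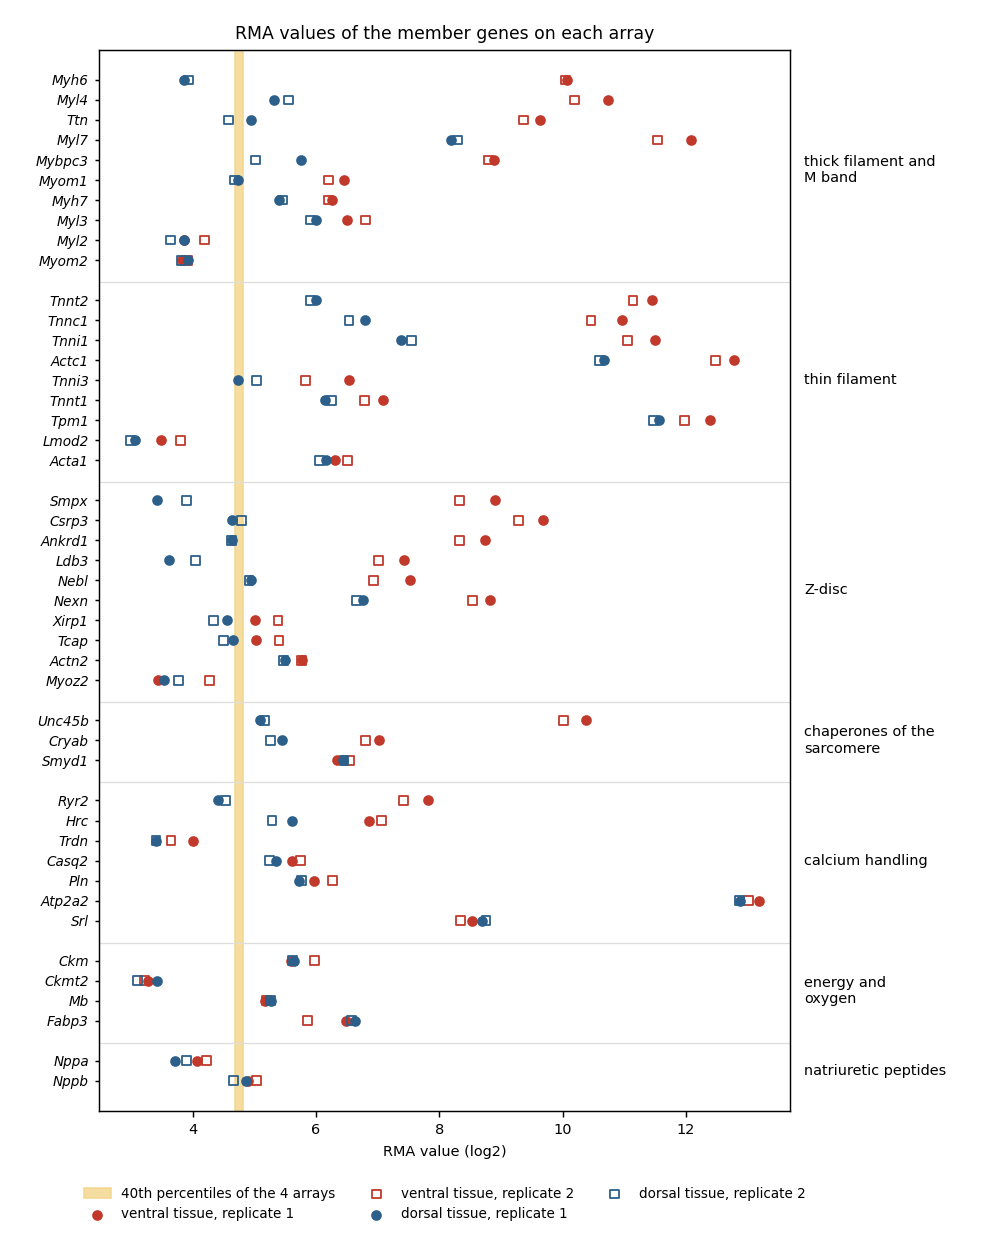
RMA values (log2, horizontal axis) of the 45 members on the 2 ventral (red) and 2 dorsal (blue) arrays, by role, with the band spanning the 40th percentiles of the 4 arrays. Values such as those of *Myh6*, *Myl4*, *Tnnt2* and *Smpx* lie far apart between the sides, and the 7 untested members lie left of the band.

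The ventral members ranged over a wide span of differences. Among the 27 members that were higher ventrally, 15 differed by more than 2 on the log2 scale, 6 by 1 to 2 and 6 by less than 1. By the plain ventral minus dorsal difference, *Myh6* was the highest of all 13139 tested genes, and 10 of the 20 highest genes were members. This ranking includes *Myh6*, *Smpx* and *Ankrd1*, which entered the test only through the ventral tissue. Set against the dorsal 40th percentiles, the difference of *Myh6* was 5.33, just below the 5.34 of *Tnnt2*. Both ventral values lay above both dorsal values in 37 of the 45 members, an order that 20% of all 18194 named genes showed. The reverse order was found in *Srl*, *Mb* and *Fabp3*, and in 26.3% of all named genes.

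To show what the regulatory sequence of such genes looks like, the 300 bases around the start of 5 members are printed, as 250 bases before and 50 after the start in RefSeq on GRCm38.p6. They are *Myh6*, *Tnnt2* (the first of its listed starts), *Myl7* and *Actc1*, which were higher ventrally, and *Nppa*, which was low on all arrays. Capitals mark, on either strand, the CArG box bound by serum response factor, the MEF2 site and GATA sites, which are the letters GATA with A or T before and A or G after. The MCAT element bound by TEAD factors, with the letters CATTCC, is marked in the same way. So is the word TATAAA. No marked words overlap each other in these 5 sequences.
Myh6, chr14:54966558-54966857, minus strand: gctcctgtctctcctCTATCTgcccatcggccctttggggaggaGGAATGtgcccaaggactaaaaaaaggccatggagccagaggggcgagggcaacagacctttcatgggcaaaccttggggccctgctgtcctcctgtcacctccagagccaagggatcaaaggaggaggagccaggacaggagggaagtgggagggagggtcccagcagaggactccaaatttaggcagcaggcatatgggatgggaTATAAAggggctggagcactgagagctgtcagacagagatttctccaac
Tnnt2, chr1:135836084-135836383, plus strand: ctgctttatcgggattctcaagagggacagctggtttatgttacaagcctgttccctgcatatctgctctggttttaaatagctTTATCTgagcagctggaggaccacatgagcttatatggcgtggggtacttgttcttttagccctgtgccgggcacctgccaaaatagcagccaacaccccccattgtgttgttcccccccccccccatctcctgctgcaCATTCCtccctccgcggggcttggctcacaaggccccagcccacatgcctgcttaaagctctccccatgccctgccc
Myl7, chr11:5898733-5899032, minus strand: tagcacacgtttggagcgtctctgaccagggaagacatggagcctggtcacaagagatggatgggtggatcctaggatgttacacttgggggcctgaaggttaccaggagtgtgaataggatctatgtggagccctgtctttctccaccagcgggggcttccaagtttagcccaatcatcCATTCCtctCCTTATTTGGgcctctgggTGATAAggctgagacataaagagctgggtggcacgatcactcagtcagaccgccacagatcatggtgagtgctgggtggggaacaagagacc
Actc1, chr2:114052826-114053125, minus strand: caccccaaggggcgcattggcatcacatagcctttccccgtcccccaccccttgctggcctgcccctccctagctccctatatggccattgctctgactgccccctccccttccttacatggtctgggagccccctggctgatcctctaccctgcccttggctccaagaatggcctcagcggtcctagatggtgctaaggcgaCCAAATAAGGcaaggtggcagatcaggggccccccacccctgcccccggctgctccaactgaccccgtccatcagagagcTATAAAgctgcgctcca
Nppa, chr4:148000472-148000771, plus strand: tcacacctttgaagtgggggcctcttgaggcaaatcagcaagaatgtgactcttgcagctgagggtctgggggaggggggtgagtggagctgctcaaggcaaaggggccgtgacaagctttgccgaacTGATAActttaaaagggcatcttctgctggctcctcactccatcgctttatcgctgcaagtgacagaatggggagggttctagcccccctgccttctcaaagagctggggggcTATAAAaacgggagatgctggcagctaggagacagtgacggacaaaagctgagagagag
The *Myl7* sequence holds an MCAT element, a CArG box and a GATA site in this order within the 70 bases before the start, and the *Actc1* sequence holds a CArG box from 47 bases before it.

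Promoter sequences were found for 37 of the 45 members, with 48 starts. A CArG box was in 8 of these 48 sequences (16.7%) and in 1.63% of all 32851 promoter sequences. It was in promoters of *Actc1*, *Ldb3*, *Myl3*, *Myl7*, *Myom1* and *Nebl*, which were higher ventrally, and of *Acta1*, which did not pass the test. A MEF2 site was in 8.33% of the member sequences and 3.19% of all, an MCAT element in 25.0% and 14.7%, a GATA site in 41.7% and 29.8%, TATAAA in 18.8% and 13.6%, and the E box CAGCTG in 35.4% and 16.3%. The NKX2-5 word CAAGTG was in 12.5% of the member sequences and 13.6% of all. Of the 31 sequences of members higher ventrally, 7 held a CArG box, 2 a MEF2 site, 10 an MCAT element and 14 a GATA site. Only 5 of these 31 held the E box, 3 held TATAAA and 2 held CAAGTG. These are matches of letters within the window and say nothing of binding, and the shares were not tested.

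Among the genes of the thick filament and M band, all 8 tested of 10 were higher in the ventral tissue, with a median difference of 3.52, or 2.54 over all 10. *Myh6*, the alpha myosin heavy chain, had values of 10.07 and 10.05 on the ventral arrays and 3.87 and 3.93 on the dorsal arrays. The log2 difference was 6.16 (standard error 0.17, n = 2 arrays per side, adjusted p = 2.85e-16 from limma), and since the dorsal values lay below the 40th percentile it amounts to at least 40.2-fold when set against the dorsal 40th percentiles. *Myh7*, the beta myosin heavy chain, had 6.25 and 6.20 ventrally and 5.39 and 5.46 dorsally. Its values did not overlap between the sides, and its difference was 0.80 (standard error 0.17, adjusted p = 0.00219).

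The myosin light chains also spanned a wide range. *Myl4*, the essential light chain of atrial muscle, had 10.74 and 10.19 on the ventral arrays and 5.32 and 5.55 on the dorsal arrays, 5.03 apart by limma (standard error 0.19, adjusted p = 2.18e-14). For *Myl7*, the regulatory light chain of atrial muscle, the values were 12.09 and 11.54 ventrally and 8.18 and 8.29 dorsally. Both dorsal values were far above the 40th percentile, and the difference was 3.57 (standard error 0.19, adjusted p = 5.5e-12). *Myl3*, the essential light chain of ventricular and slow skeletal muscle, had 6.50 and 6.81 ventrally and 6.0 and 5.91 dorsally by its highest probe set. The difference was 0.70 (adjusted p = 0.0104 from limma), and its other probe sets differed more. *Myl2*, the regulatory light chain of ventricular and slow skeletal muscle, had 3.87 and 4.20 ventrally and 3.86 and 3.64 dorsally, all below the 40th percentile.

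*Ttn*, which encodes the giant spring protein titin, had 9.63 and 9.37 on the ventral and 4.94 and 4.58 on the dorsal arrays. Its difference was 4.74 (standard error 0.18, adjusted p = 2.28e-14 from limma). *Mybpc3*, cardiac myosin-binding protein C, had 8.89 and 8.80 ventrally and 5.75 and 5.01 dorsally, and its dorsal replicates lay farther apart than the ventral ones. The difference was 3.46 (standard error 0.20, adjusted p = 2.93e-11). In *Myom1*, which encodes the M band crosslinker myomesin, the values were 6.46 and 6.20 ventrally and 4.74 and 4.68 dorsally, a difference of 1.62 (adjusted p = 3.87e-07). *Myom2*, which encodes the M-protein of fast and adult heart muscle, had values between 3.82 and 3.93 on the 4 arrays, without separation between the sides.

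**Figure D2:**
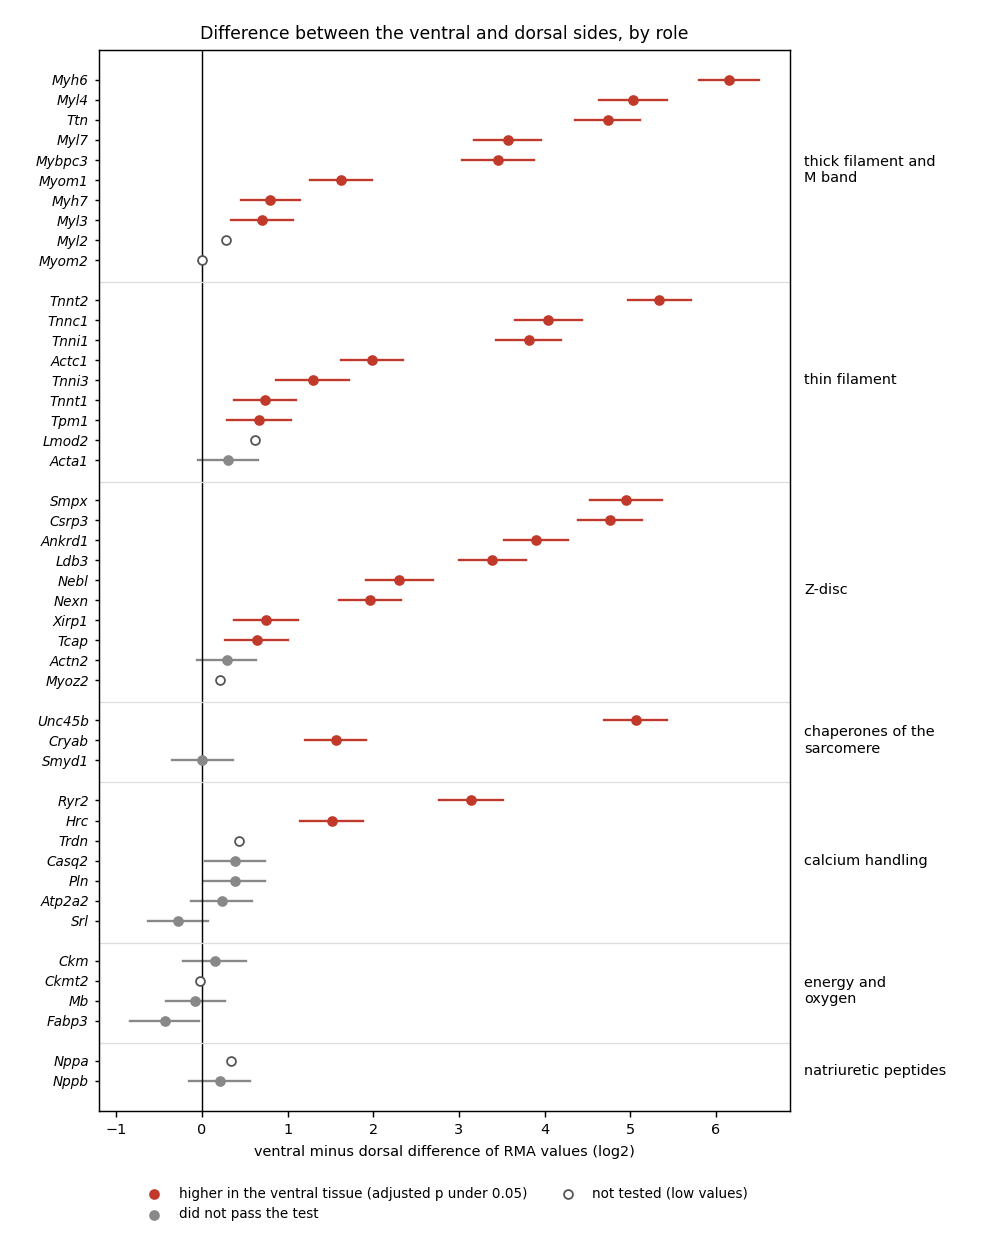
Ventral minus dorsal difference of RMA values (log2, horizontal axis) of the members by role, with the 95% confidence interval from limma for the tested ones and open circles for the 7 untested ones. Thick filament, thin filament and Z-disc genes reach differences of 4.95 to 6.16. The 3 tested energy genes and the 1 tested natriuretic peptide gene did not pass the test.

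Of 9 thin filament genes, 8 were tested and 7 were higher in the ventral tissue, with a median difference of 1.64, or 1.29 over all 9. *Tnnt2*, cardiac troponin T, which ties the troponin complex to tropomyosin, had values of 11.46 and 11.14 on the ventral arrays and 5.99 and 5.92 on the dorsal arrays. This is a difference of 5.34, or 40.6-fold (standard error 0.17, adjusted p = 4.01e-15 from limma). *Tnnc1*, the calcium-binding troponin C of cardiac and slow muscle, had 10.96 and 10.46 ventrally and 6.80 and 6.53 dorsally, a difference of 4.04 (adjusted p = 7.21e-13). Of the inhibitory troponins I, the slow skeletal gene *Tnni1* had 11.50 and 11.05 ventrally and 7.37 and 7.55 dorsally, and its difference was 3.82 (standard error 0.18, adjusted p = 1.05e-12). The cardiac gene *Tnni3* had 6.53 and 5.83 ventrally and 4.73 and 5.04 dorsally, with a difference of 1.29 (standard error 0.20, adjusted p = 0.000104). The ventral values of *Tnni3* spread over 0.70, and the difference was 1.80 between the replicates 1 and 0.79 between the replicates 2. *Tnnt1*, the slow skeletal troponin T, had 7.09 and 6.78 ventrally and 6.14 and 6.26 dorsally, a difference of 0.74 (adjusted p = 0.00666).

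The actin and tropomyosin genes were above the 40th percentile on all 4 arrays. *Actc1*, cardiac alpha-actin, had 12.78 and 12.47 on the ventral and 10.68 and 10.60 on the dorsal arrays, 1.99 apart by limma (standard error 0.17, adjusted p = 2.03e-08). *Acta1*, skeletal alpha-actin, had 6.31 and 6.51 ventrally and 6.16 and 6.05 dorsally, and its difference of 0.30 did not pass the test (95% confidence interval -0.05 to 0.66, adjusted p = 0.36). *Tpm1*, alpha-tropomyosin, which many cell types use, had 12.39 and 11.98 ventrally and 11.56 and 11.47 dorsally. Its difference of 0.67 passed the test (adjusted p = 0.0184), but its probe set is shared by several transcripts, and without such probe sets the difference was 0.16 (adjusted p = 0.704). The leiomodin gene *Lmod2*, whose product nucleates thin filaments, had 3.49 and 3.81 ventrally and 3.07 and 2.99 dorsally, below the 40th percentile on all 4 arrays.

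Of 10 Z-disc genes, 9 were tested and 8 were higher in the ventral tissue, with a median difference of 2.30, or 2.13 over all 10. *Smpx*, which encodes a small muscle protein, had 8.90 and 8.32 on the ventral arrays and 3.43 and 3.90 on the dorsal arrays. The difference was 4.95 (standard error 0.20, adjusted p = 8.08e-14 from limma), at least 14.7-fold against the dorsal 40th percentiles. *Csrp3*, the muscle LIM protein, had 9.68 and 9.29 ventrally and 4.64 and 4.80 dorsally, a difference of 4.76 (adjusted p = 2.18e-14). The titin-binding ankyrin repeat gene *Ankrd1* had 8.73 and 8.33 ventrally and 4.63 and 4.63 dorsally, at least 13.9-fold against the dorsal 40th percentiles (difference 3.90, adjusted p = 5.29e-13). *Ldb3*, which encodes a PDZ-LIM protein that binds alpha-actinin, had 7.43 and 7.02 ventrally and 3.62 and 4.04 dorsally, with a difference of 3.39 that is at least 5.63-fold against the same percentiles (adjusted p = 1.48e-11).

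The other Z-disc genes differed less by their highest probe sets. *Nebl*, which encodes the actin-binding nebulette, had 7.53 and 6.94 ventrally and 4.94 and 4.92 dorsally, and *Nexn*, which encodes the actin-binding nexilin, had 8.82 and 8.54 ventrally and 6.77 and 6.66 dorsally. Their differences were 2.30 and 1.97 (adjusted p = 8.69e-09 and 2.21e-08 from limma). Another probe set of *Nebl* differed by 3.39 and passed when tested by itself (adjusted p = 2.91e-05 from limma). *Xirp1*, a gene of the intercalated disc, and *Tcap*, which encodes the titin cap telethonin, lay just above the 40th percentile ventrally, at 5.01 and 5.38 and at 5.03 and 5.40, and below it dorsally, at 4.56 and 4.34 and at 4.66 and 4.50. Their differences were 0.75 and 0.64 (adjusted p = 0.0079 and 0.0238 from limma). Against the dorsal 40th percentiles these were at least 1.38-fold and at least 1.4-fold. *Actn2*, the sarcomeric alpha-actinin, had 5.78 and 5.77 ventrally and 5.50 and 5.47 dorsally. Its difference was 0.29 (95% confidence interval -0.06 to 0.64, adjusted p = 0.378), so it did not pass. *Myoz2*, which encodes a calcineurin-binding Z-disc protein, had 3.44 and 4.28 ventrally and 3.54 and 3.77 dorsally, and these values overlapped below the 40th percentile.

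The 3 genes of sarcomere assembly and protein folding gave different values. *Unc45b*, the muscle chaperone of myosin, had 10.37 and 10.01 on the ventral arrays and 5.09 and 5.17 on the dorsal arrays, a difference of 5.06, or 33.5-fold (standard error 0.18, adjusted p = 1.12e-14 from limma). *Cryab*, a small heat shock protein that binds titin and desmin, had 7.02 and 6.81 ventrally and 5.45 and 5.26 dorsally, a difference of 1.56 (adjusted p = 7.27e-07). *Smyd1*, a muscle methyltransferase needed for myosin assembly, had 6.34 and 6.55 ventrally and 6.43 and 6.45 dorsally by its highest probe set. The difference was 0.0024 (95% confidence interval -0.35 to 0.36, adjusted p = 0.997), and the values of the sides overlapped.

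Of 7 calcium handling genes, 6 were tested and only *Ryr2* and *Hrc* passed, both higher in the ventral tissue. *Ryr2*, the calcium release channel of heart muscle, had 7.82 and 7.42 on the ventral arrays and 4.42 and 4.54 on the dorsal arrays. Its difference was 3.14 (standard error 0.18, adjusted p = 1.94e-11 from limma), at least 7.4-fold against the dorsal 40th percentiles. *Hrc*, which encodes a histidine-rich calcium-binding protein of the reticulum, had 6.86 and 7.07 ventrally and 5.61 and 5.29 dorsally, a difference of 1.52 (adjusted p = 1.67e-06). Of the store and its regulators, *Casq2*, the cardiac calsequestrin, had 5.62 and 5.75 ventrally and 5.36 and 5.25 dorsally, and *Pln*, phospholamban, had 5.98 and 6.27 ventrally and 5.73 and 5.76 dorsally. Both were higher on each ventral array than on either dorsal array, with differences of 0.38 and 0.38, but neither passed (95% confidence intervals 0.03 to 0.73 and 0.02 to 0.74, adjusted p = 0.215 and 0.232).

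*Atp2a2*, the calcium pump of the reticulum, is used by heart muscle and, as another splice form, by nearly all cells. It had 13.18 and 13.02 ventrally and 12.88 and 12.87 dorsally, values that did not overlap, and its difference of 0.23 did not pass (95% confidence interval -0.12 to 0.58, adjusted p = 0.51 from limma). *Srl*, sarcalumenin, a calcium-binding protein of the reticulum, had 8.53 and 8.35 ventrally and 8.70 and 8.76 dorsally. Every ventral value lay below every dorsal value, but the difference of -0.29 did not pass (adjusted p = 0.395). *Trdn*, triadin, which anchors calsequestrin to the release channel, had 4.01 and 3.65 ventrally and 3.40 and 3.41 dorsally, below the 40th percentile on all arrays.

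None of the 3 tested genes of energy or oxygen supply passed the test. *Ckm*, muscle creatine kinase, had 5.60 and 5.97 on the ventral arrays and 5.65 and 5.62 on the dorsal arrays, and the sides overlapped (difference 0.15, adjusted p = 0.696 from limma). *Mb*, myoglobin, had 5.17 and 5.20 ventrally and 5.27 and 5.26 dorsally, with a difference of -0.08 (95% confidence interval -0.43 to 0.27, adjusted p = 0.837). *Fabp3*, the heart fatty acid-binding protein, had 6.48 and 5.86 ventrally and 6.63 and 6.58 dorsally, and its difference of -0.44 did not pass (adjusted p = 0.211). The mitochondrial creatine kinase gene *Ckmt2* had values between 3.11 and 3.43, below the 40th percentile on all arrays. Of the natriuretic peptide genes, *Nppa*, which marks atrial and working chamber muscle, had 4.07 and 4.23 ventrally and 3.72 and 3.91 dorsally, below the 40th percentile on all 4 arrays. *Nppb* had 4.89 and 5.04 ventrally and 4.86 and 4.66 dorsally, close to the 40th percentile, and did not pass (difference 0.20, adjusted p = 0.571).

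Set side by side, the isoform classes gave unlike differences. In the class of genes used by atrial muscle, *Myh6*, *Myl4* and *Myl7* differed by 3.57 to 6.16 and *Nppa* was not tested. In the class of ventricular muscle, *Myl3* and *Myh7* differed by 0.70 and 0.80 and *Myl2* was not tested. The value of *Myl3* depended on the probe set. Its other probe sets differed by 0.92 and 2.04, and both passed when tested by themselves. Of the slow skeletal isoforms, *Tnni1* differed by 3.82 and *Tnnt1* by 0.74, and of the cardiac troponins, *Tnnt2*, *Tnnc1* and *Tnni3* differed by 5.34, 4.04 and 1.29. Whether one isoform differed more than another was not tested.

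**Figure D3:**
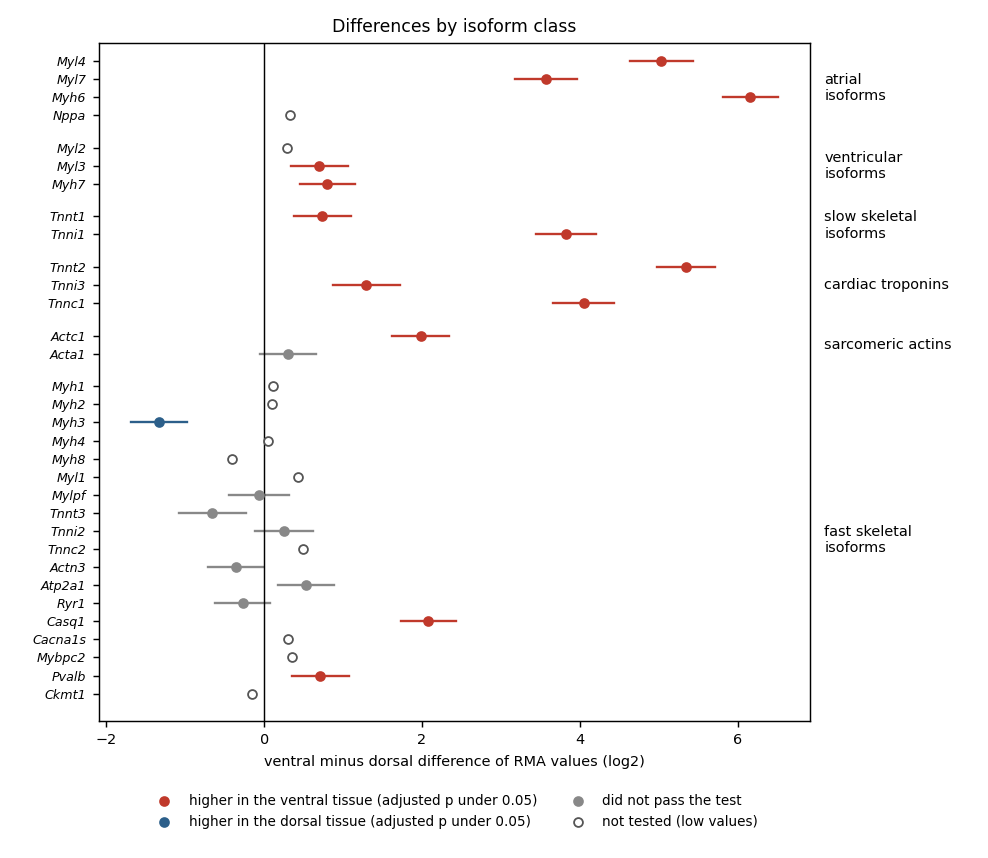
Ventral minus dorsal difference of RMA values (log2, horizontal axis) by isoform class, with the 95% confidence interval from limma for tested genes and open circles for untested genes. Each gene is shown by its probe set of highest mean. *Myh6*, *Myl4* and *Myl7* lie at 3.57 to 6.16, *Myl3* and *Myh7* at 0.70 and 0.80, and most fast skeletal genes lie near 0 or were not tested.

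Fast skeletal isoforms, which embryonic heart muscle uses little, formed no common pattern. Of 18 such genes 9 were tested, and *Casq1* and *Pvalb* were higher in the ventral tissue, *Myh3* was higher in the dorsal tissue and 6 did not pass, with a median of -0.07. *Casq1*, the skeletal calsequestrin, had 7.45 and 7.57 on the ventral arrays and 5.45 and 5.41 on the dorsal arrays, a difference of 2.08 (adjusted p = 6.26e-09 from limma), while that of the cardiac *Casq2* was 0.38 and did not pass. Whether these differ was not tested. *Pvalb*, a calcium buffer of fast muscle and some neurons, differed by 0.71 (adjusted p = 0.009). *Myh3*, the embryonic skeletal myosin heavy chain, had 3.46 and 3.60 ventrally, below the 40th percentile, and 4.91 and 4.82 dorsally. Its difference was -1.33 (adjusted p = 5.35e-06 from limma). Set against the ventral 40th percentiles, *Myh3* was at least 1.07-fold higher in the dorsal tissue. Of 8 markers of skeletal muscle progenitors, *Myf5*, *Myf6*, *Myod1*, *Myog* and *Pax7* were too low to be tested, *Msc* was higher dorsally (-2.62), *Tcf21* was higher ventrally (0.71) and *Pax3* did not pass. The summed linear signal of the 8 markers, most of it that of *Msc* on the dorsal arrays, was 1223 to 1809 on the ventral arrays and 3003 to 3248 on the dorsal arrays.

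Further genes of the same systems were examined as 3 lists. Of 26 further sarcomere genes of striated muscle on the array, 18 were tested, 6 were higher in the ventral tissue, 3 in the dorsal tissue and 9 did not pass (median 0.24). *Trim63*, a ubiquitin ligase of the sarcomere, differed by 1.76. It was below the 40th percentile on both dorsal arrays and at least 2.21-fold higher ventrally when set against those percentiles. *Pdlim5* differed by 1.01, *Synpo2l* by 0.96 and the small heat shock gene *Hspb7* by 0.93, while *Des*, desmin, and *Dmd*, dystrophin, which smooth muscle also uses, were higher dorsally, at -0.73 and -1.48 (adjusted p from 2.22e-07 for *Trim63* to 0.0078 for *Des* from limma). By probe set, *Synpo2l* ranged from 0.04 to 2.90, *Hspb7* from 0.01 to 0.93, *Des* from -0.73 to -0.05 and *Dmd* from -1.53 to 0.06. Of 13 tested further genes of calcium handling and excitation, 5 were higher ventrally and none dorsally (median 0.11). They were the membrane genes *Popdc3* (below the 40th percentile dorsally, at least 2.7-fold), *Popdc2* (difference 2.01) and *Bves* (1.68), the sodium-calcium exchanger *Slc8a1* (0.81) and the junctophilin gene *Jph2* (0.76). Of 7 tested further energy genes, *Pgam2*, muscle phosphoglycerate mutase, and *Ppargc1a*, a regulator of mitochondrial genes, were higher ventrally and 5 did not pass (median -0.13). *Pgam2* differed by 1.95, and *Ppargc1a*, below the 40th percentile on both dorsal arrays, was at least 1.26-fold higher against those percentiles.

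Lists of heart markers and of markers for other cells were unequal as well. Of 16 tested cardiac transcription factors, 10 were higher in the ventral tissue and *Hey2* in the dorsal tissue, with a median of 1.38. *Tbx20*, *Myocd*, *Gata4*, *Nkx2-5*, *Hand2* and *Gata6* differed by 4.68, 4.52, 3.05, 2.90, 2.23 and 2.15, and the summed linear signal of the 17 listed factors was 17180 to 20260 on the ventral arrays and 6432 to 6746 on the dorsal arrays. Of 4 tested hepatic markers, *Afp*, *Ttr* and *Hhex* were higher ventrally (summed linear signal of 6 markers 2642 to 3022 ventrally and 639.9 to 646.9 dorsally). Of 7 tested epicardial and mesothelial markers, 5 were higher dorsally and *Tcf21* ventrally (summed linear signal of 8 markers 2788 to 3619 ventrally and 5617 to 5778 dorsally), with *Wt1* below the 40th percentile on both ventral arrays. Of 5 tested blood markers 2 were higher dorsally (summed linear signal 36190 to 44150 ventrally and 54760 to 54930 dorsally), and none of 9 tested endothelial markers passed. The part of these cell types in the values of the members was not tested. Of the markers of the foregut itself, 10 epithelial and 8 mesenchymal ones were all tested. Among the epithelial ones *Shh*, a signal of the ventral foregut epithelium, had 13.22 and 12.93 ventrally and 10.45 and 10.38 dorsally, *Grhl2* and *Foxa1* were also higher ventrally, *Sox2* was higher dorsally and 6 did not pass, with *Nkx2-1* below the median of each array. Among the mesenchymal ones *Wnt2* (2.73) and *Tbx4* (0.94) were higher ventrally, *Col1a1* was higher dorsally (-2.54) and 5 did not pass.

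**Figure D4:**
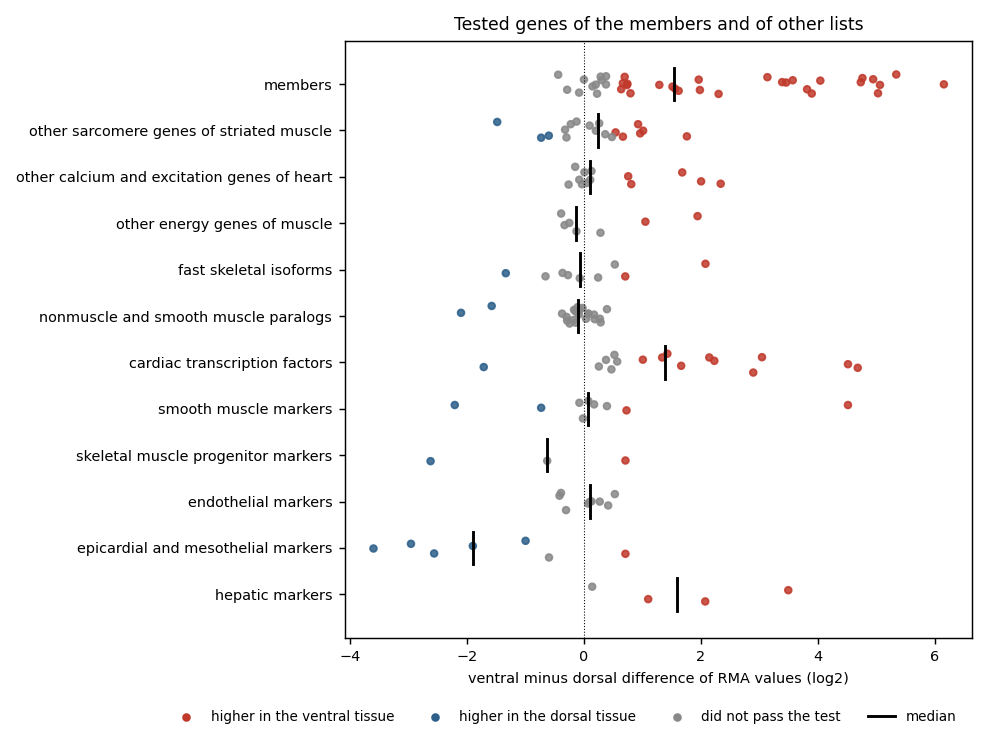
Ventral minus dorsal difference of RMA values (log2, horizontal axis) of the tested genes among the members and in other lists, each gene as a point in the colour of its call, and black bars for medians. The tested members have a median of 1.54 (0.75 over all 45) and the tested cardiac transcription factors one of 1.38. The medians of the other sarcomere, calcium and energy lists, the fast skeletal isoforms and the paralogs lie between -0.13 and 0.24.

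Several members have more than 1 probe set, and these did not always give the same difference. When each of the 58 member probe sets above the filter was tested by itself, 34 were higher in the ventral tissue, none in the dorsal tissue and 24 did not pass, where 2.56% of all 23336 probe sets were higher ventrally and 3.28% dorsally. By this count 25 members had at least 1 probe set that passed, and *Tpm1* and *Tcap* had none. *Tnnt2* had a further probe set with a difference of 5.53 and another with 0.76, and *Ttn* had 6 probe sets with differences from 0.26 to 4.74. For *Myh6*, *Myl4*, *Ldb3* and *Ryr2* each other probe set differed by 0.37 or less, at values of 5.20 or less, and the mean over all probe sets gave 3.14 for *Myh6*, 2.57 for *Myl4*, 1.33 for *Ldb3* and 1.57 for *Ryr2*, and each still passed. Without probe sets that can match several transcripts, *Ttn* was at 1.04 and *Tnnt2* at 0.76, and both still passed. *Smyd1* had 6 probe sets with differences from 0.0024 to 0.90, and none of its 3 tested probe sets passed. The 6 probe sets of *Atp2a2* gave differences from -0.22 to 0.53.

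**Figure D5:**
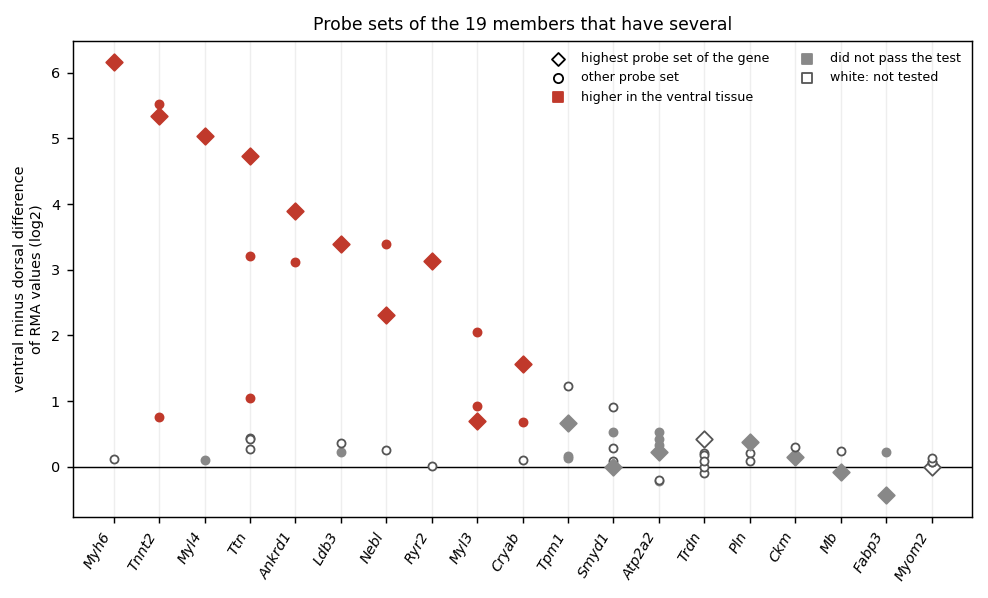
Ventral minus dorsal difference of RMA values (log2, vertical axis) of each probe set of the 19 members that have several, with a diamond for the highest probe set of a gene, circles for the others and colour for the limma call. The probe sets of *Ttn* span 0.26 to 4.74 and those of *Tnnt2* 0.76 to 5.53.

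Within the called members the ventral replicates mostly lay in the same order. Of the 27 members that were higher ventrally, 23 had a higher value on ventral replicate 1 than on ventral replicate 2, and of the 11 that did not pass, 4 did. The share of all tested genes with this order was not counted. The upper quartile of all probe sets was also higher on ventral replicate 1, at 8.02 against 7.75, but the median was lower, at 5.42 against 5.47. Whether the order is particular to the members was not tested. The members differed between the ventral replicates by a median of 0.31 and between the dorsal replicates by 0.11. For *Myh6* the difference was 6.20 between the replicates 1 and 6.12 between the replicates 2, for *Smpx* it was 5.47 and 4.43, and for *Actc1* 2.10 and 1.87. In contrast, for *Hrc* it was 1.25 and 1.78, and for *Xirp1* 0.45 and 1.04. Without ventral replicate 1, 25 members were higher ventrally and *Srl* and *Fabp3* were higher dorsally, where 12.3% of all tested genes were higher ventrally and 35.1% dorsally, with a median of -0.18. That omission also added *Acta1*, *Actn2*, *Casq2*, *Ckm* and *Pln* and left 7 called members untested. Without any other array, 21 members were higher ventrally and none dorsally, and without ventral replicate 2 all 6 members that lost their call, *Myh6* among them, were untested because the filter asks for 2 arrays. Without either dorsal array *Myh7*, *Myl3*, *Tnnt1*, *Tpm1*, *Tcap* and *Xirp1* lost their calls, at 0.56 to 0.85.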

How the data were processed

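The authors amplified and labelled total RNA for each array and made the values by RMA, a method that the submitters' processing notes name. The sources used here give neither its software nor a version. Deposited values run from 2.36 to 15.02 and are read as log2 from that range. Each of the 4 columns was assigned to its tissue and replicate from the labels, and no further normalization was done. The number of arrays limits the precision.

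Of 45101 probe sets, 34958 had 1 gene symbol in GEO's platform annotation. Another 932 had several and 9211 were not named here, and neither kind was used. The identifiers of 34754 were found in RefSeq for GRCm38.p6. A gene was represented by its probe set of highest mean. Fits used lmFit with eBayes from limma 3.58.1 (R 4.3.3), with no term for the replicate number, two-sided, and Benjamini-Hochberg adjustment over all tested genes, and were tested on simulated data. A difference from a tissue below the 40th percentile on both arrays was set against those percentiles. The adjusted p belongs to the plain difference and not to the fold against the percentiles. The summed linear signal of a list is the sum of the values with the log2 undone.

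All 45 members are reported, and up to 6 called genes with the largest differences of each further muscle list. Marker genes, and *Hey2*, were named after their values were seen. Members and lists were chosen with earlier results of these data known, and the test of each probe set by itself was chosen after seeing the data. Alternatives changed the filter (none, or the 60th percentile), the scaling (quantile normalization again, or equal medians), the probe sets (their mean, or none that match several transcripts), the eBayes step (trend, robust), the threshold (0.01) and the design (replicate number as a block), or left out each array, which leaves 1 array on a side and takes the spread from the other.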

Additional observations from a re-analysis of the deposited data

How the results depend on the processing

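Counting each tested member under each of 14 alternatives, 468 differences kept their direction and their side of the threshold, 21 lost their call, 7 gained one and 3 changed sign, the last in members that did not pass. These were *Smyd1* (-0.01 without dorsal replicate 1, and from -0.10 to 0.11 over the omissions of an array) and *Ckm* (from -0.035 to 0.33). The members called higher in the ventral tissue numbered 27 and were 22 to 27 under the alternatives that kept all arrays, with none higher in the dorsal tissue. Leaving out an array gave 21 to 25 members higher ventrally and 0 to 2 dorsally, and 276 to 1593 of all tested genes higher ventrally and 247 to 4544 dorsally, against 538 and 629 with all arrays. The 1593 and 4544 came without ventral replicate 1, and are 12.3% and 35.1% of the genes then tested. With the replicate block the same 27 members were called, and 678 genes were higher ventrally and 790 dorsally. Deviations of arrays with the same number correlated at 0.14 over 13139 genes and at -0.42 over the 38 tested members. Whether arrays with the same number came from the same embryos is not known. Quantile normalization once more gave 635 genes higher ventrally and 479 dorsally, so the side with more called genes changed. It left 23 members called, without *Myl3*, *Tcap*, *Tnni3* and *Xirp1*. A filter at the 60th percentile left 26 members tested and 22 called, where 4.69% of all tested genes were higher ventrally and 6.41% dorsally. *Myh7*, *Myom1*, *Tcap*, *Tnni3* and *Xirp1* lost their calls there because they were untested. At an adjusted p under 0.01, 24 were called, without *Myl3*, *Tcap* and *Tpm1*, where 2.91% of all tested genes were higher ventrally and 3.23% dorsally. The cause of these changes was not tested. Signals near the 40th percentile, as in *Tcap* and *Xirp1*, or below it, as in *Nppa* and *Trdn*, limit what can be said of low genes.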

Other observations

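The nonmuscle and smooth muscle paralogs of the members showed little of the members' difference. Of 23 tested paralogs none was higher in the ventral tissue, *Ryr3* and *Myl9* were higher in the dorsal tissue and 21 did not pass, with a median of -0.10. *Ryr3*, a ryanodine receptor of brain and smooth muscle, had 4.81 and 5.0 on the ventral arrays and 6.99 and 7.02 on the dorsal arrays, a difference of -2.10 (adjusted p = 6.26e-09 from limma), whereas *Ryr2* had 3.14. The 3 probe sets of *Ryr3* gave differences from -2.10 to 0.12. *Myl9*, the regulatory light chain of smooth muscle, had 8.64 and 7.86 ventrally and 9.92 and 9.73 dorsally, a difference of -1.58 (adjusted p = 9.43e-06), whereas *Myl7* had 3.57. Of 9 tested smooth muscle markers, *Tagln*, an actin-binding gene that embryonic heart also uses, and *Des* were higher dorsally (-2.21 and -0.73) and *Cnn1* and *Myocd* were higher ventrally (0.73 and 4.52). *Myocd* is a cofactor of serum response factor in cardiac and smooth muscle alike, and it is also counted among the cardiac transcription factors. *Hey2*, a transcription factor gene of ventricular muscle and of vessels, had 3.55 and 3.67 ventrally, below the 40th percentile, and 5.33 and 5.31 dorsally. Its difference was -1.71 (adjusted p = 1.15e-07 from limma). Set against the ventral 40th percentiles, *Hey2* was at least 1.48-fold higher in the dorsal tissue.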
